A study of Mus musculus with 10 samples.

Results

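The inducible HSP70 genes and the main heat shock chaperones were followed across 10 arrays of mouse haematopoietic progenitor cells. The genes were Hspa1a, Hspa1b, Hspa8, Hsph1, Dnajb1, Hsp90aa1, Hspd1, Hspe1, Hspb1 and Hsf1. They were taken as every probe set whose gene symbol in the platform annotation is, or includes, one of these 10 names. The rule found 22 of 45037 probe sets, for 9 of the 10 genes. No probe set was listed under Hsf1, the gene of the main heat shock transcription factor, which was not analysed here. All 22 probe sets carried a single symbol. The genes were selected on their log2 differences at 4 h, with the values of those arrays known. Every difference between the 4 h group and another group is therefore given below as a description, without a test. A comparison by replicate number was tested, and it includes the 4 h arrays.

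The cells were murine stem and progenitor cells transduced with a retrovirus that co-expresses EGFP and HOXB4. HOXB4-ER is a fusion of this homeobox factor that enters the nucleus when 4-hydroxytamoxifen (TMX) is present, and HOXB4const is the constitutive form, which does not need TMX. Per the labels, both populations were grown with TMX for 14 days, sorted for GFP and for the lineage-negative, Sca1-positive, c-kit-positive (LSK) phenotype, and kept for 12 h more with TMX before they were divided. The groups were HOXB4-ER cells 4 h without TMX, HOXB4-ER cells 1 h without TMX, HOXB4-ER cells 1 h with TMX, HOXB4const cells 1 h without TMX and HOXB4const cells 1 h with TMX, with 2 biological replicates each. TMX was used at 10 nM where present. The HOXB4-ER arrays with TMX were the other side of the 4 h difference that selected the genes. Tests that use them are therefore not independent of that choice. Arrays of HOXB4-ER cells kept 4 h with TMX, or of HOXB4const cells at that time, were not analysed here, so the length of culture and the length of withdrawal cannot be told apart at 4 h. The labels do not say which animals, cultures or days the replicate numbers stand for, and p-values measure the spread between these arrays, which may be technical in part.

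Values are log2 signals as deposited by the authors, and a difference of 1 is a doubling of the signal. Where a pair of values is given for a group, replicate 1 is followed by replicate 2. The median signal of the arrays lay between 3.96 and 5.32, and a probe set below its array's median is called dim here. Of 8 LSK genes listed, 6 were measured, and Kit (8.72 to 10.93), Cd34 (10.78 to 11.86) and Gata2 (8.61 to 10.05) were bright on all 10 arrays. The lymphoid gene Cd3e (2.43 to 5.51) and the erythroid gene Hba-a1 (0.08 to 4.97) were dim or near the array medians. Of the 9 lymphoid and 8 erythroid genes measured, 3 in each list were at or above the median signal. The monocyte genes Lyz2 (8.71 to 13.07) and Csf1r (6.80 to 11.39) spanned a wide range that followed the replicate number. Granulocyte markers were also bright: their summed linear signal over 9 genes was 7340 to 21035. The sum was 5187 to 7555 for the 6 LSK genes, 141 to 492 for the lymphoid and 118 to 217 for the erythroid genes. These were bulk samples, in which fewer cells of a type and less RNA per cell cannot be told apart.

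Heat shock proteins are chaperones that bind unfolded or partly folded proteins. The HSP70 proteins bind short hydrophobic stretches in a cycle driven by ATP, in which J-domain proteins such as Dnajb1 deliver the client and speed ATP hydrolysis, and nucleotide exchange factors such as Hsph1 release it. Hspa8 is the constitutive HSP70 of the cytosol, and Hspa1a and Hspa1b encode near-identical inducible forms that most cells make in quantity only under stress. Hsp90aa1 is the inducible cytosolic HSP90, Hspd1 and Hspe1 form the mitochondrial chaperonin HSP60 and its lid HSP10, and Hspb1 is a small heat shock protein. When unfolded proteins draw chaperones away from it, the factor HSF1 forms trimers and binds heat shock elements, which are alternating inverted repeats of the unit GAA.

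The sequences upstream of the inducible pair are shown because both genes stood apart on the 4 h arrays. They are the 250 bases before the annotated start, from RefSeq on GRCm38.p6, 5′ to 3′ on the gene's own strand, with the heat shock element match in capitals. Hspa1a lies at chr17:34972157-34972406 and Hspa1b at chr17:34959239-34959488, both on the minus strand.
Hspa1a: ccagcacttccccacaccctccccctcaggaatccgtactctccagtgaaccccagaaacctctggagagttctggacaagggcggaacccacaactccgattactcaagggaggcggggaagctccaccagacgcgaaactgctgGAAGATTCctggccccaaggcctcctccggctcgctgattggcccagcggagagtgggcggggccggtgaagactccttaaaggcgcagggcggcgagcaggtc
Hspa1b: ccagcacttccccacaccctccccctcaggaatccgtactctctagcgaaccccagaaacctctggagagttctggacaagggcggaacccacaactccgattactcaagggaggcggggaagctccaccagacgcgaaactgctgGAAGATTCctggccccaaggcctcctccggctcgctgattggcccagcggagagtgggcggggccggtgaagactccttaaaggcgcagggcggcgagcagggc
The runs were identical at 98.8% of 250 bases and differed at 3. Counted from 1 at the first printed base, with the base of Hspa1a first, the differences were C44T, T47C and T249G, all outside the match. The match GAAGATTC began at position -104 from the start in both genes.

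A run of 30 bases is shown for each of Hsph1, Hspd1 and Hspb1, for comparison with the inducible pair. Every match within a run is in capitals, but not every match of these genes is printed. Hsph1 is at chr5:149636351-149636380 on the minus strand, Hspd1 at chr1:55088053-55088082 on the minus strand, and Hspb1 at chr5:135887811-135887840 on the plus strand.
Hsph1: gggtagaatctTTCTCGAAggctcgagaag
Hspd1: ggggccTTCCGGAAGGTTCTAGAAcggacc
Hspb1: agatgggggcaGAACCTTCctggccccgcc
The motifs searched were GAANNTTC and TTCNNGAA, each of which reads the same on both strands, in windows of 250 bases before and 50 after the start. Of 32851 RefSeq windows of this length, 7.86% held GAANNTTC, 8.52% held TTCNNGAA and 15.1% held either. Each window of Hsph1, that of Hspe1 and 1 of the 2 windows of Hspd1 held 3 of these short matches, the other Hspd1 window held 0, and that of Hspb1 held 2. A longer match of 3 units, GAANNTTCNNGAA or its reverse complement TTCNNGAANNTTC, which overlap the shorter motifs, was in 0.603% of windows. It occurred in those same windows of Hspd1, Hspe1 and Hsph1. In both Hsph1 windows it lies after the annotated start, outside the printed run. These letters were not in the windows of Hspa1a, Hspa1b, Hspb1 or Dnajb1. Hspd1 and Hspe1 are transcribed in opposite directions, and the printed Hspd1 bases lie, on the opposite strand, in the Hspe1 window as well. The 2 windows of Dnajb1 held neither of the shorter motifs. A match is a description of the sequence and does not show that a factor was bound in these cells.

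Hspa1a and Hspa1b had their highest signals on both arrays of HOXB4-ER cells 4 h without TMX. Hspa1a (1452388_at) had log2 signals of 7.00 and 7.02 at 4 h without TMX, 0.76 and 1.47 at 1 h without TMX, and 1.46 and 0.97 at 1 h with TMX. In HOXB4const cells it had 2.85 and 3.49 at 1 h without TMX, and 2.86 and 4.72 at 1 h with TMX. The pair of 4 h arrays stood above the other 8 arrays, and the 4 HOXB4-ER arrays at 1 h stood below the 4 HOXB4const arrays. The share of all probe sets with the latter order was not computed. Hspa1a averaged 7.01 ± 0.02 at 4 h without TMX, against 1.22 ± 0.35 with TMX (SD, n = 2 each), a difference of 5.79 ± 0.68 on the log2 scale (limma's moderated SE). Within replicates the difference was 6.05 for replicate 2 and 5.53 for replicate 1.

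The size of the Hspa1a difference depends on how low signals are treated. The probe set was below the array median on 7 of 10 arrays, and with values under each array's median raised to that median the difference was 2.85. The difference was positive in every alternative that gave Hspa1a a value, from 2.85 to 6.04 against TMX and from 2.46 to 6.30 against 1 h without TMX.

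Hspa1b was measured by 3 probe sets, of which 1452318_a_at was the brightest. It had log2 signals of 8.83 and 9.28 in HOXB4-ER cells 4 h without TMX, 3.92 and 4.54 at 1 h without TMX, and 4.54 and 4.68 at 1 h with TMX. In HOXB4const cells it had 6.20 and 5.60 at 1 h without TMX, and 2.59 and 5.29 at 1 h with TMX. Again the 4 h arrays were above all others, and the HOXB4const replicates with TMX lay far apart. The mean was 9.06 ± 0.32 at 4 h without TMX, against 4.61 ± 0.10 with TMX (SD, n = 2 each), a difference of 4.45 ± 0.85 (SE), and it was 4.60 within replicate 2 and 4.30 within replicate 1. The same difference was 4.45 after the floor at the array median, and it ranged from 4.14 to 4.80 over the alternatives.

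The other Hspa1b probe sets gave differences of like size. Probe set 1427126_at had 8.14 and 8.79 at 4 h without TMX, 4.89 and 4.68 at 1 h without TMX, and 2.39 and 3.77 at 1 h with TMX. Its 4 HOXB4const arrays had 4.71 and 4.44 without TMX, and 3.37 and 5.08 with TMX. Probe set 1427127_x_at had 8.75 and 9.41 at 4 h without TMX, 4.57 and 4.54 at 1 h without TMX, and 4.27 and 4.79 at 1 h with TMX. On both, no array outside the 4 h group overlapped the 4 h values. The differences between 4 h without TMX and 1 h with TMX were 5.39 ± 0.72 and 4.55 ± 0.55 (SE). Probe set 1427126_at was under the array median on 5 arrays, and with such values raised to the median its difference was 4.30. Hspa1a and Hspa1b are near-identical copies, so a probe set listed under one symbol can bind transcripts of the other, and how much of the signal each gene gave cannot be told apart.

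**Figure D1:**
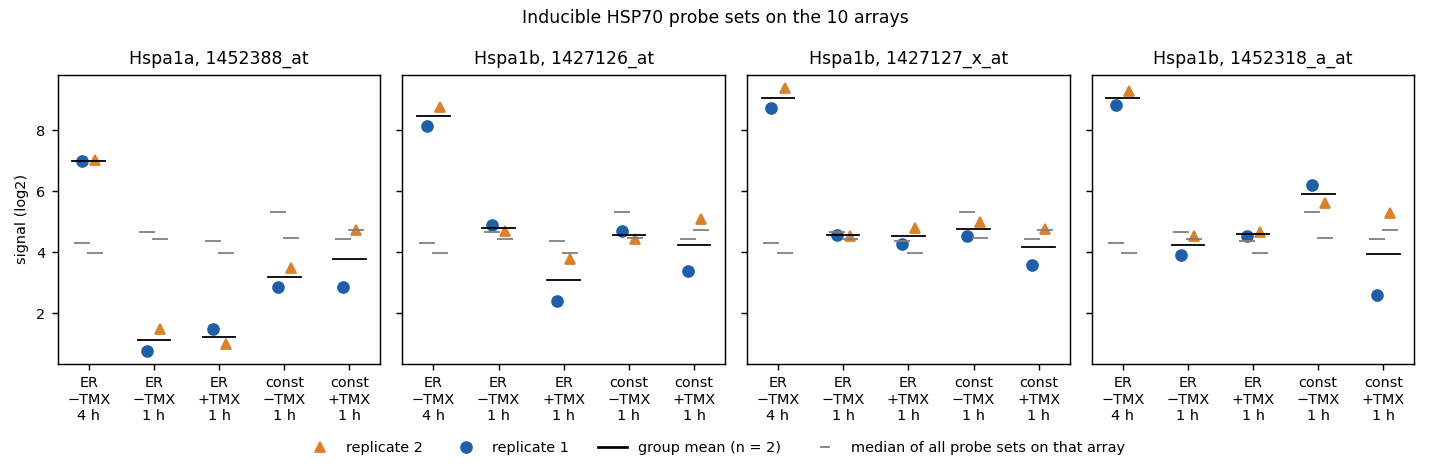
Log2 signal of the Hspa1a probe set and the 3 Hspa1b probe sets (y axis) on each of the 10 arrays, by group (x axis), with points for replicates and lines for group means. The 4 h arrays without TMX sit at 7.00 to 9.41 and every other array at 6.20 or lower.

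The 4 h arrays stood further above the other 8 arrays for these 4 probe sets than for any other on the array. Distances below the other 8 arrays were not compared in size. The lower of the 4 h arrays exceeded the highest of the other 8 arrays by 3.75 for 1427127_x_at, 3.06 for 1427126_at, 2.64 for 1452318_a_at and 2.27 for Hspa1a. Of 45037 probe sets, these were the only 4 with such a gap above 2, which is 0.00888%; the limit of 2 was chosen after the values were seen. Both 4 h arrays were above the other 8 arrays for 4 of the 22 heat shock probe sets and for 1.69% of all probe sets, and below them for 0 of the 22 and for 3.85% of all. Because the genes were chosen with these arrays known, nothing is read from these counts. Over all probe sets, limma called 0% at an adjusted p under 0.05 both for 4 h without TMX against TMX and for 4 h against 1 h without TMX, and 3.35% and 5.68% had an unadjusted p under 0.05.

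Against HOXB4-ER cells 1 h without TMX, the same probe sets were again higher at 4 h. The differences between 4 h and 1 h were 5.89 for Hspa1a and 4.82, 3.68 and 4.53 for Hspa1b on 1452318_a_at, 1427126_at and 1427127_x_at. The comparison shares the 4 h arrays with the one above and is not a separate observation of them.

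The constitutive HSP70, Hspa8, did not share the pattern of the inducible pair. Its brightest probe set (1420623_x_at) had 12.11 and 13.01 at 4 h without TMX, 13.49 and 13.15 at 1 h without TMX, and 12.44 and 12.80 at 1 h with TMX. It had 12.78 and 13.26 in HOXB4const cells without TMX, and 12.59 and 12.48 with TMX. The 4 h arrays lay within or below the range of the other 8 arrays, and the difference between 4 h without TMX and TMX was -0.06 ± 0.49 (SE). The other 3 Hspa8 probe sets gave -0.47 to 0.62.

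The co-chaperones of HSP70 showed no separation of the 4 h arrays either. Hsph1, the HSP110 protein that acts as a nucleotide exchange factor, had 8.91 and 9.55 on 1425993_a_at at 4 h without TMX, 8.84 and 9.79 at 1 h without TMX, and 8.73 and 10.03 at 1 h with TMX. In HOXB4const cells it had 8.52 and 9.74 without TMX, and 8.53 and 9.92 with TMX. In each of these pairs the second value, that of replicate 2, was the higher, and the difference between 4 h and TMX was -0.16 ± 0.77 (SE). Dnajb1, a J-domain partner of HSP70, had 8.09 and 8.95 on 1416755_at at 4 h without TMX, 8.98 and 8.81 at 1 h without TMX, and 8.47 and 8.76 at 1 h with TMX. Its HOXB4const arrays had 8.91 and 9.01 without TMX, and 8.48 and 8.98 with TMX. The range over the 10 arrays was 8.09 to 9.01, with the lowest value on a 4 h array, and the difference was -0.10 ± 0.47 (SE).

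The HSP90 gene Hsp90aa1 was bright, and of its 5 probe sets only the dim 1433251_at was higher at 4 h without TMX than with TMX. The brightest (1438902_a_at) had 12.04 and 12.79 at 4 h without TMX, 12.40 and 12.70 at 1 h without TMX, and 12.38 and 12.60 at 1 h with TMX. The 4 HOXB4const arrays had 11.36 and 13.32 without TMX, and 12.25 and 11.63 with TMX. The groups overlapped, and the difference between 4 h without TMX and TMX was -0.07 ± 0.70 (SE). The other bright probe sets, 1426645_at and 1437497_a_at, gave -0.33 ± 0.41 and -0.64 ± 1.09 (SE). The dim probe sets 1433251_at and 1441827_x_at, each under the array median on 7 arrays, gave 2.51 and -1.55, opposite in direction.

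The mitochondrial chaperonin genes stayed within their spread at 4 h. Hspd1 (1426351_at) had 11.61 and 12.50 at 4 h without TMX, 12.06 and 12.41 at 1 h without TMX, and 11.74 and 12.33 at 1 h with TMX. In HOXB4const cells it had 11.85 and 12.49 without TMX, and 11.78 and 12.01 with TMX. The 4 h arrays held both the lowest and the highest of the 10 values, and the difference between 4 h and TMX was 0.02 ± 0.52 (SE). Hspe1 (1450668_s_at) had 11.30 and 11.90 at 4 h without TMX, 11.35 and 11.74 at 1 h without TMX, and 11.31 and 11.78 at 1 h with TMX. Its HOXB4const arrays had 10.55 and 11.18 without TMX, and 10.88 and 10.62 with TMX. The 3 HOXB4-ER groups coincided, at a difference of 0.05 ± 0.48 (SE) between 4 h and TMX. All 6 HOXB4-ER arrays were above all 4 HOXB4const arrays, but the share of all probe sets with this order was not computed.

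The small heat shock protein gene Hspb1 had lower signals that overlapped between groups. On 1422943_a_at it had 5.63 and 4.57 at 4 h without TMX, 5.70 and 4.72 at 1 h without TMX, and 5.21 and 3.94 at 1 h with TMX. It had 6.21 and 4.90 in HOXB4const cells without TMX, and 5.31 and 5.28 with TMX. Replicate 1 was the higher in each group, and the difference between 4 h without TMX and TMX was 0.52 ± 0.72 (SE). The second Hspb1 probe set, 1425964_x_at, was under the array median on all 10 arrays and gave 2.49 ± 0.93 (SE) for the same difference.

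**Figure D2:**
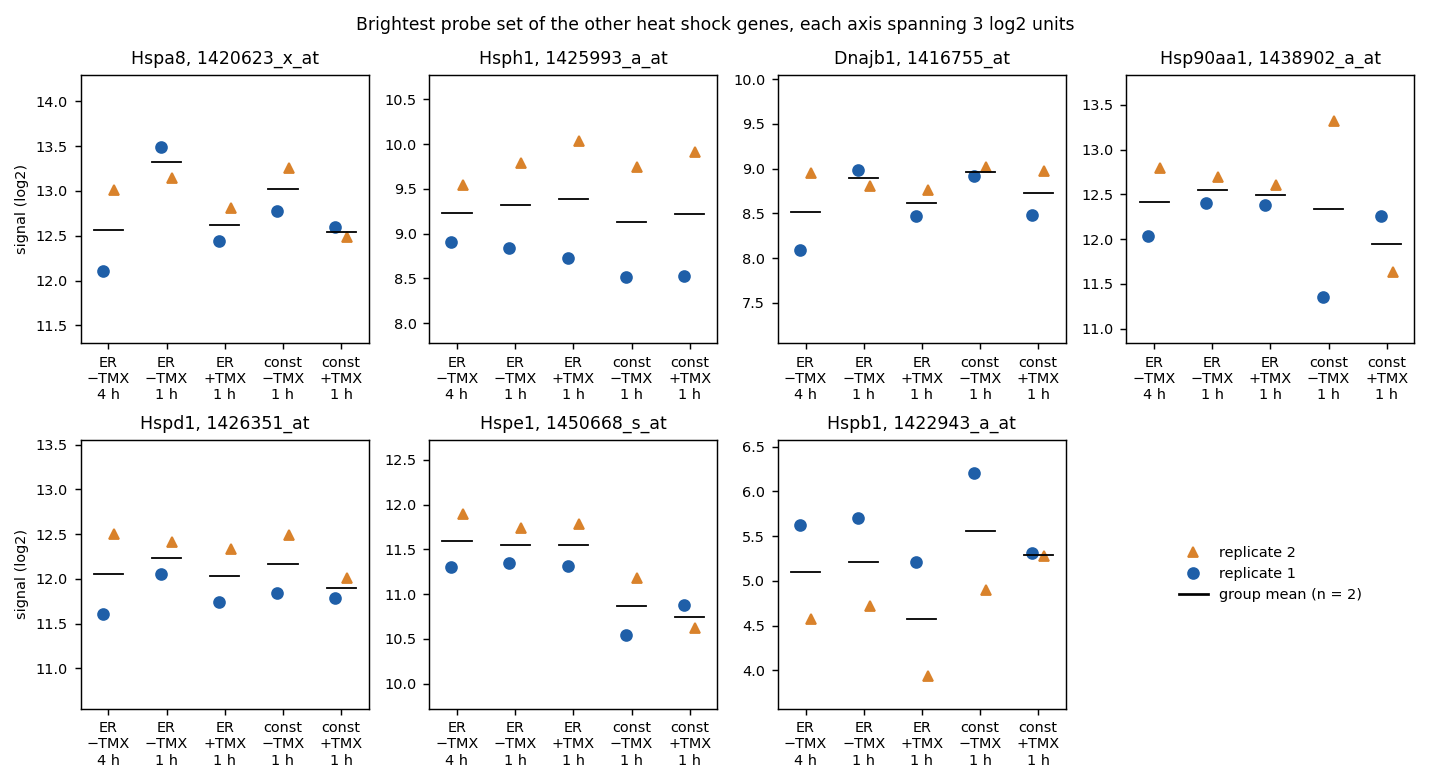
Log2 signal (y axis) of the brightest probe set of Hspa8, Hsph1, Dnajb1, Hsp90aa1, Hspd1, Hspe1 and Hspb1 on the 10 arrays by group (x axis), with points for replicates and lines for group means. For none of the 7 genes are both 4 h arrays above, or both below, the other 8 arrays.

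Over the 22 probe sets, 10 were higher and 12 lower at 4 h without TMX than with TMX, with a median difference of -0.07, beside -0.02 over all probe sets. Against 1 h without TMX, 8 were higher and 14 lower, with a median of -0.16, beside -0.17 over all probe sets. The 4 probe sets of Hspa1a and Hspa1b were the high end of a list whose middle was near 0.

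Withdrawal of TMX for 1 h was tested in each construct. No heat shock gene passed the threshold of an adjusted p under 0.05 in either. The HOXB4-ER test uses the arrays with TMX that also entered the choice of the genes, so it is not independent of that choice. The difference between the 1 h effects and the construct comparison with TMX, both given below, share those arrays. In HOXB4-ER cells, 0 of 22 probe sets passed in limma, against 0% of all probe sets, and 1 had an unadjusted p under 0.05, against 4.76% of all. That probe set was 1427126_at of Hspa1b, at 1.71 ± 0.72 (SE, 95% interval 0.02 to 3.40, limma adjusted p = 0.9999). With values under the array median raised to it, this difference was 0.62, and it was 1.02 without the replicate 1 array with TMX, which was at 2.39. The other Hspa1b probe sets gave 0.02 ± 0.55 and -0.38 ± 0.85 for the same comparison, so they did not move with it. Hspa1a differed by -0.10 ± 0.68 (95% interval -1.70 to 1.51), with all 4 arrays under their array medians. Hspa8 differed by 0.70 ± 0.49 (95% interval -0.45 to 1.85). Over the 22 probe sets, 16 were higher and 6 lower without TMX, with a median of 0.18, beside 0.12 over all probe sets.

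In HOXB4const cells, which do not need TMX, 0 of 22 probe sets passed in limma, against 0% of all probe sets, and 0 had an unadjusted p under 0.05, against 4.34% of all. Hspa1b on 1452318_a_at differed by 1.96 ± 0.85 (SE, 95% interval -0.03 to 3.96, limma adjusted p = 0.9999). The difference rested on the replicate 1 array with TMX, which was at 2.59. Without TMX minus with TMX, it was 0.31 within replicate 2 and 3.61 within replicate 1. Hspa1a differed by -0.62 ± 0.68 and 13 of the 22 probe sets were higher and 9 lower without TMX. The difference between the 1 h effects in HOXB4-ER and HOXB4const cells passed for 0 of 22 probe sets, against 0% of all, and 0 had an unadjusted p under 0.05, against 3.77% of all.

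**Figure D3:**
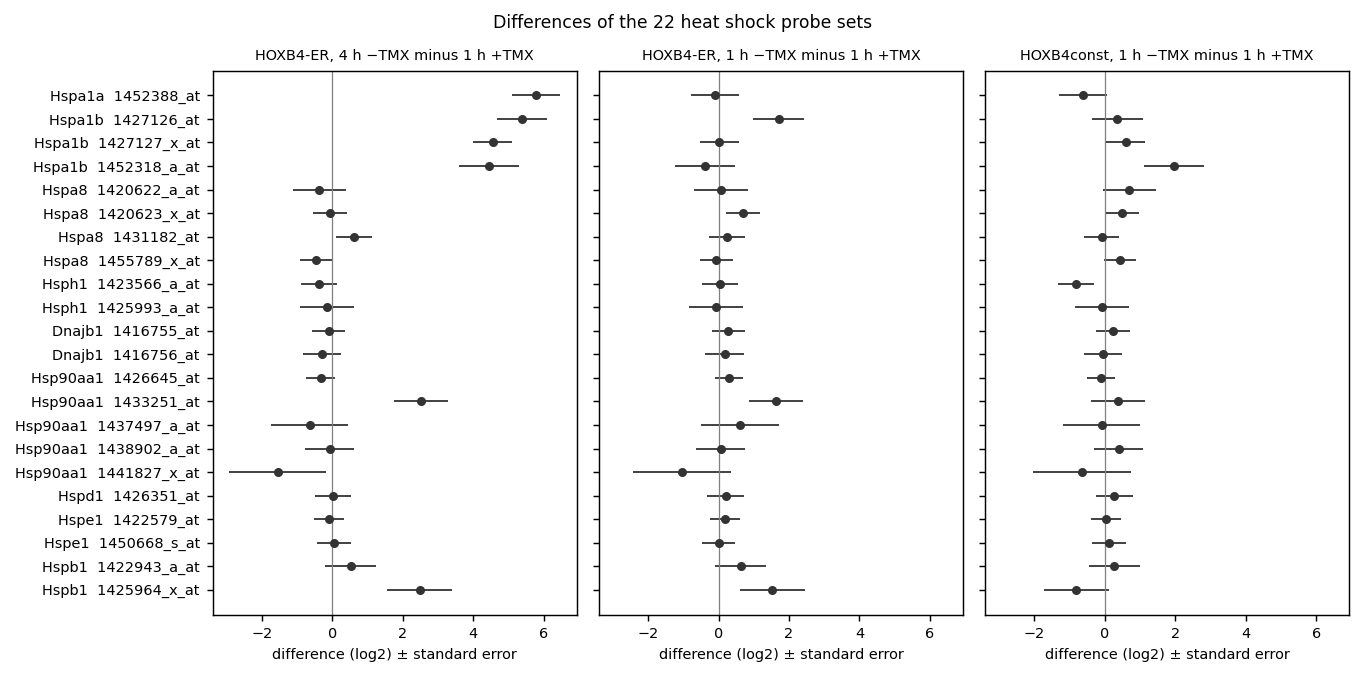
Difference in log2 signal (x axis) for each of the 22 probe sets of the heat shock genes (y axis), for HOXB4-ER cells 4 h and 1 h without TMX and HOXB4const cells 1 h without TMX, each minus the cells with TMX, with bars for limma's standard error. The 4 probe sets of Hspa1a and Hspa1b lie between 4.45 and 5.79 at 4 h without TMX against TMX and between -0.62 and 1.96 in both comparisons at 1 h.

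The constructs were then compared at 1 h. With TMX in both, 0 of 22 probe sets passed for HOXB4-ER against HOXB4const cells in limma, against 0% of all probe sets, and 3 had an unadjusted p under 0.05, against 4.38% of all. Without TMX in both, 0 passed, against 0% of all, and 2 had an unadjusted p under 0.05, against 6.82% of all. Hspa1a was lower in HOXB4-ER cells by 2.58 with TMX (difference -2.58 ± 0.68, limma adjusted p = 0.850). Without TMX the difference was -2.05 ± 0.68 (limma adjusted p = 0.629). The HOXB4-ER values were all under their array medians, and so were the HOXB4const values except that of replicate 2 with TMX. That value, 4.72, was just above its array median of 4.71. With values under the array median raised to it the differences were -0.42 with TMX and -0.34 without TMX. These are then almost wholly differences between array medians and do not measure Hspa1a. The dim Hsp90aa1 probe set 1433251_at gave -3.41 ± 0.76 with TMX (limma adjusted p = 0.762) and -2.14 without TMX, while the 3 brighter Hsp90aa1 probe sets gave 0.04 to 0.55 with TMX and 0.21 to 0.74 without. The dim Hspb1 probe set 1425964_x_at gave -2.91 ± 0.93 with TMX (limma adjusted p = 0.976) and -0.58 ± 0.93 without TMX.

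Hspe1 was higher in HOXB4-ER than in HOXB4const cells on a bright probe set, but the difference did not pass. HOXB4-ER minus HOXB4const gave 0.80 ± 0.48 with TMX (95% interval -0.33 to 1.92, limma adjusted p = 1.0) and 0.68 ± 0.48 without TMX (adjusted p = 0.904). The other Hspe1 probe set, 1422579_at, had 8.71 to 9.27 over all arrays, with the constructs overlapping. Hspd1, its partner in the chaperonin, gave 0.14 ± 0.52 with TMX and 0.07 ± 0.52 without TMX (SE). Granulocyte markers also moved with the construct. Their summed linear signal over 9 genes was 13272 to 21035 on the 6 HOXB4-ER arrays and 7340 to 8939 on the 4 HOXB4const arrays, and 8 of 9 were higher in HOXB4-ER cells both with TMX (median 1.34) and without TMX (median 2.12). Their part in the construct differences of Hspe1 and Hspa1a was not tested.

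Replicate 2 was then compared with replicate 1 over all 5 groups. This test includes the 4 h arrays, whose values were known when the genes were chosen. In a fit with the group as a covariate, 0 of 22 probe sets passed in limma, against 0% of all probe sets, and 3 had an unadjusted p under 0.05, against 13.7% of all. Of the 22 probe sets, 19 were higher and 3 lower on replicate 2, with a median of 0.37, beside -0.15 over all probe sets, and of the 9 genes by their brightest probe set 8 were higher. Hsph1 on 1425993_a_at averaged 9.81 ± 0.18 over replicate 2 arrays and 8.71 ± 0.18 over replicate 1 arrays (SD, n = 5 each), a difference of 1.10 ± 0.23 (SE, limma adjusted p = 0.190), higher on replicate 2 in 5 of 5 groups. It was the only one of the 22 on which replicate 2 was above replicate 1 with no overlap, beside 2.74% of all probe sets, and on 0 of the 22 was it below, beside 3.76% of all. The other Hsph1 probe set, 1423566_a_at, gave 0.28, with replicate 2 higher in 3 of 5 groups.

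The 3 probe sets that were lower on replicate 2 were 1 each of Hsp90aa1, Hspb1 and Dnajb1. On 1416756_at, Dnajb1 gave -0.53 ± 0.26, while its brightest probe set gave 0.31 ± 0.25 (SE). On 1437497_a_at, Hsp90aa1 averaged 8.55 ± 0.65 over replicate 2 arrays and 10.08 ± 0.63 over replicate 1 arrays (SD, n = 5 each), a difference of -1.54 ± 0.40 (SE, limma adjusted p = 0.237), lower on replicate 2 in 5 of 5 groups. The brightest Hsp90aa1 probe set gave the opposite sign, so this gene has no single direction. Hspb1 averaged 4.68 ± 0.49 over replicate 2 arrays and 5.61 ± 0.39 over replicate 1 arrays (SD, n = 5 each), a difference of -0.93 ± 0.28 (SE, limma adjusted p = 0.277). Hspd1 averaged 12.35 ± 0.20 over replicate 2 arrays and 11.81 ± 0.17 over replicate 1 arrays, a difference of 0.54 ± 0.23 (SE, limma adjusted p = 0.380), higher on replicate 2 in 5 of 5 groups. How many of all probe sets lay on 1 side in 5 of 5 groups was not counted.

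**Figure D4:**
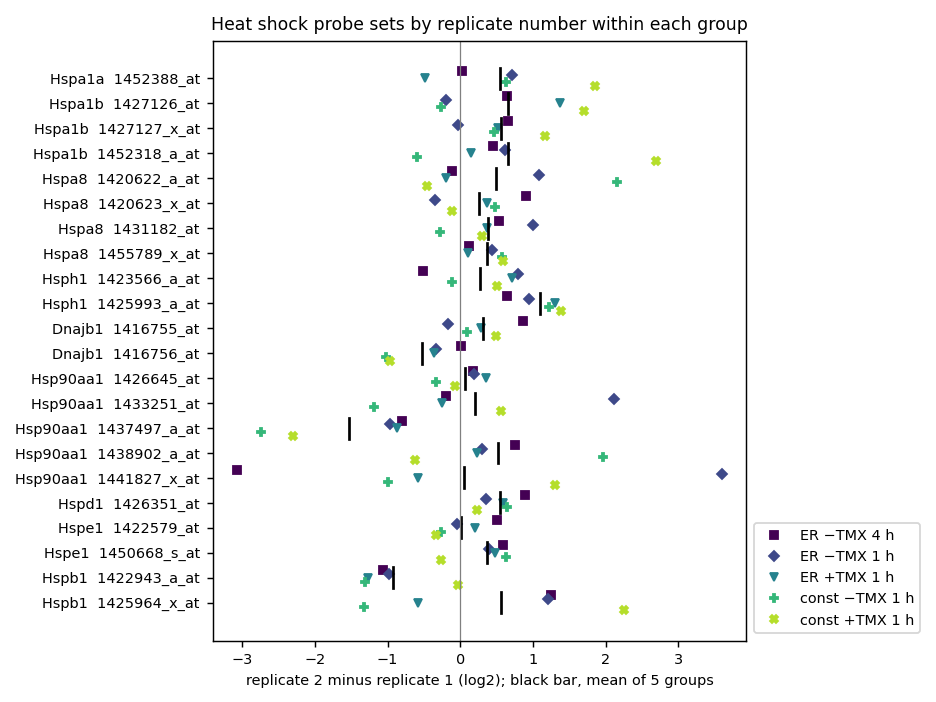
Replicate 2 minus replicate 1 in log2 signal (x axis) for the 22 probe sets of the heat shock genes (y axis), with a point for each of the 5 groups and a bar for their mean. Hsph1 (1425993_a_at) and Hspd1 are higher on replicate 2 in 5 of 5 groups and Hspb1 (1422943_a_at) is lower in 5 of 5.

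Other measures also followed the replicate number. The difference between the 3′ and 5′ Gapdh control probe sets, a measure of how complete the amplified RNA is, averaged 2.72 ± 1.08 over replicate 2 arrays and 1.10 ± 0.26 over replicate 1 arrays (SD, n = 5 each). The summed linear signal of the 10 monocyte markers was 1751 to 3403 on replicate 2 and 10848 to 16757 on replicate 1 arrays, and all 10 were lower on replicate 2. The summed signal of the 19 immediate early genes, which respond to handling within an hour, was 1618 to 1793 on replicate 2 and 2912 to 4734 on replicate 1 arrays. Their part in the replicate differences of the chaperones was not tested. On the 4 h arrays the monocyte sum was 1904 for replicate 2 and 12957 for replicate 1, the Gapdh difference was 3.47 for replicate 2 and 1.42 for replicate 1, and Hspa1a and Hspa1b were high on both 4 h arrays.

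The wider chaperone network gave no gene past the threshold in limma in any tested comparison. At 4 h without TMX against TMX, other HSP70 and HSP110 genes were higher in 8 of 9 cases with a median of 0.09, beside 0.02 over all genes, of which 51.7% were higher. Among 13 other J-domain genes, 9 were higher and 4 lower, with a median of 0.05, and the values of Dnajb2 and Dnajb4, which are J-domain partners of HSP70, were 1.00 ± 0.50 and 0.78 ± 0.46 (SE). Of 11 other HSP90 and co-chaperone genes measured, 4 were higher and 7 lower, with a median of -0.11, and Fkbp4, an immunophilin of the HSP90 complex, gave -0.51 ± 0.53. Of 11 nucleotide exchange and HSP70 co-chaperone genes, 3 were higher and 8 lower, with a median of -0.02, and Bag2 gave -0.64 ± 0.56. Like the constitutive HSP70, these groups were centred near 0.

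The 8 subunits of the cytosolic chaperonin CCT, which folds actin and tubulin, gave 4 h differences of -0.11 to 0.13, with a median of 0.06. The 7 other small heat shock genes, of which 3 were at or above the median signal, had a median of -0.40, with 3 higher and 4 lower. Of 13 other heat shock-inducible genes measured, 9 were higher and 4 lower, with a median of 0.31. Hmox1, the haem oxygenase induced by oxidative stress, gave 1.48 ± 1.43 (SE). As listed, Bag3, Hspa4l, Chordc1, Dnaja1, Dnajb4 and Atf3 also belong to other lists here, so the lists are not separate sets of genes. Of 19 immediate early genes, 7 were higher and 12 lower, with a median of -0.17, and Egr1 gave -1.93 ± 1.63. Of 6 heat shock factors and their regulators measured, 1 was higher and 5 lower, and Hsf2 gave -0.004 ± 0.72 while Sirt1, a deacetylase that acts on HSF1, gave 0.11 ± 0.71. After 1 h without TMX, the medians of these 9 lists lay between -0.08 and 0.54.

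**Figure D5:**
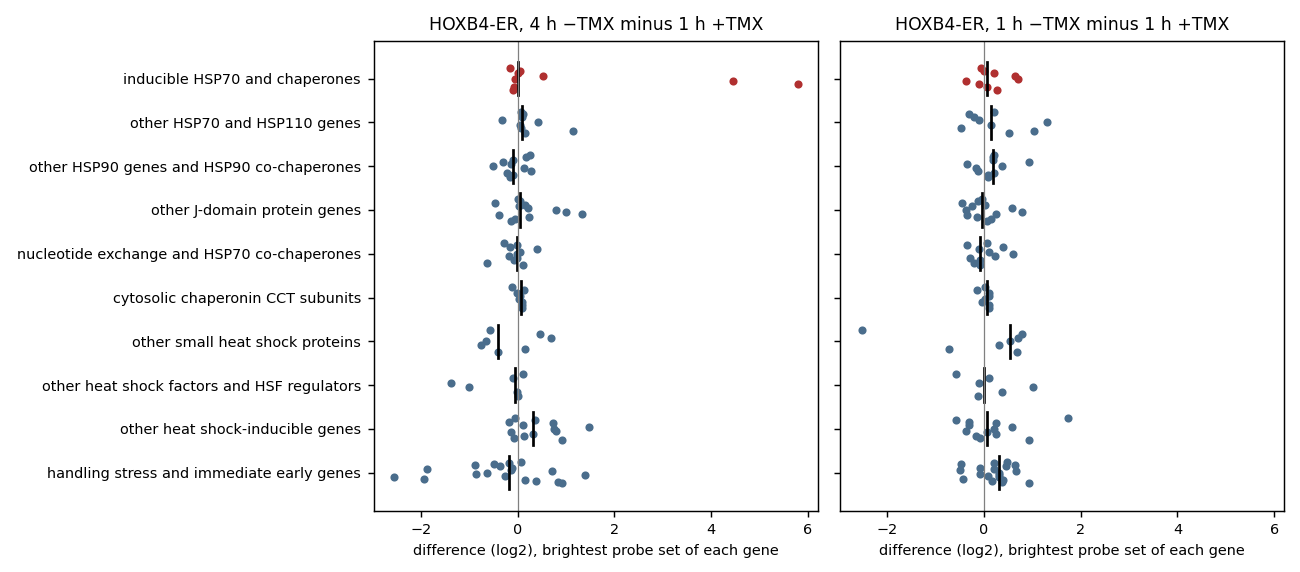
Difference in log2 signal between HOXB4-ER cells without TMX and with TMX (x axis), at 4 h and at 1 h of withdrawal, for the genes of each chaperone list (y axis), with a point per gene and a bar for the list's median. At 4 h Hspa1a and Hspa1b are at 5.79 and 4.45, and the medians of the other lists lie between -0.40 and 0.31.

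By replicate number, the CCT subunits lay on 1 side. All 8 were higher on replicate 2 in 5 of 5 groups, by 0.39 to 0.72, with a median of 0.53. Over all genes, dim ones included, the median was -0.03 and 47.8% were higher on replicate 2. The share of all genes higher in 5 of 5 groups was not computed. None of the 8 passed the threshold (Cct8 0.72 ± 0.21, limma adjusted p = 0.271). Their summed signal was 30270 to 33970 on replicate 2 and 20981 to 23442 on replicate 1 arrays. Of the immediate early genes, 17 of 19 were lower on replicate 2, with a median of -1.28, and Atf3, a stress-induced factor, gave -5.26 ± 0.58 (limma adjusted p = 0.134).

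The genes whose signals followed Hspa1a and Hspa1b most closely over the 10 arrays are given as a description. The arrays share their culture, their group and their amplification. The 4 h arrays, known when the genes were chosen, stood above all others for both genes and weigh heavily in r. Hspa1a was also under the array median on 7 of the 10 arrays. Shared regulation was not tested. For Hspa1a they were Adam17, Il10rb, Mxd1, Rnf135 and Plekha2, with Pearson's r of 0.92 to 0.96 among 11341 genes compared. For the brightest Hspa1b probe set they were Rnf185, Zfp451, Tbc1d2b, Pacc1 and Zkscan8, with r of 0.87 to 0.90 among 11340 genes. Their differences between 4 h without TMX and TMX were 0.59 to 2.16 and 0.60 to 0.81, below those of the HSP70 genes. Among the heat shock genes, the Hspa1a and Hspa1b probe sets correlated at 0.835 to 0.843 with each other, and Hspa1a correlated at -0.43 with Hspa8 and -0.07 with Hspd1.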

How the data were processed

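The authors deposited log2 values, 1 signal per probe set and Affymetrix array. GCOS and RMA appear in the submitters' processing notes with no stated role, and the values were not normalized again. RNA was amplified linearly with T7 polymerase, per the labels' protocols. Of 45101 probe sets, 64 controls were left out, and genes were named from the platform annotation, with each gene of a list represented by its brightest probe set. Limma 3.58.1 in R 4.3.3 was fitted to all 10 arrays with 1 mean for each of 5 groups (5 residual and 2.21 prior degrees of freedom), two-sided, with Benjamini-Hochberg adjustment over 45037 probe sets and a threshold of 0.05. The replicate comparison used the group as a covariate. The fits were tested on simulated data. The genes and lists were chosen with earlier results of these data known. Named list genes were chosen largely by the size of their moderated statistic in a comparison, among genes at or above the median signal. Some, such as Hsf2 and Sirt1, had small differences at 4 h, so a named gene need not be the largest of its list there. Likeness used Pearson's r. No depth applies to arrays; 2 arrays per group limit the precision. Promoters are from RefSeq on GRCm38.p6.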

Additional observations from a re-analysis of the deposited data

How the results depend on the processing

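The 8 counts of probe sets and 72 differences of the heat shock genes were recomputed under 18 alternatives, not all of which apply to each comparison. Leaving out any array gave 0 calls in each comparison, and so did adding the replicate number as a block. The labels do not say what a number marks. The replicate 2 minus replicate 1 differences of any pair of groups correlated positively, in 10 of 10 pairs (0.210 to 0.527). With the block, the SE of the 4 h difference against TMX was 0.37 rather than 0.77 for Hsph1 (1425993_a_at). It was 0.45 rather than 0.72 for Hspb1 (1422943_a_at) and 0.63 rather than 1.09 for Hsp90aa1 (1437497_a_at). The errors given above for group differences thus include the spread between replicate numbers. With values under the array median raised to it, limma called 15 probe sets for HOXB4-ER against HOXB4const with TMX, 2 without TMX, 5 for 4 h without TMX against TMX and 5 for 4 h against 1 h without TMX, and 3876 for replicate 2 against replicate 1. The replicate count was 850 of 22519 with brighter probe sets only. It was 2728 of 45037 with an intensity trend and 343 of 45037 without the group covariate. These held 1, 2 and 1 of the heat shock probe sets, and the 3876 of 45037 with the floor held 3. Hsph1 passed in all 4 of these settings (limma adjusted p of 0.0335, 0.000599, 0.0384 and 0.000384 with the floor last). Hsp90aa1 (1437497_a_at) also passed with the trend (adjusted p = 0.00192) and with the floor (7.85e-06), and Hspb1 (1422943_a_at) with the floor (0.00436). Hspa1a has no value among the brighter probe sets. Of 1216 alternative values of the heat shock genes, 125 changed sign, among 51 of the 72 differences, and none of these passed the threshold. The causes were not tested. Low signal limits Hspa1a, Hspa1b on 1427126_at, Hspb1 and the dim Hsp90aa1 probe sets.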
